A study of Drosophila melanogaster with 3 samples.

Results

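Introns of 2000 nucleotides (nt) or more were examined in the full-length mRNA isoforms of Drosophila melanogaster heads. They were chosen by their length alone. Every intron between consecutive exons of a multi-exon isoform model was taken once by chromosome, strand, start and end, and those of at least 2000 nt were kept. This gave 1160 long introns of 12981 unique introns, 8.94% (8.46 to 9.44). Intervals printed beside shares are Wilson 95% intervals. The models came from FLAM-seq, which reads full-length polyadenylated mRNAs on long-read instruments. The 3 samples were whole heads of 3-day-old adults of the strain w1118, each from 4 µg of total RNA. No other genotype or treatment was part of the set. The reads of the 3 samples had been merged into 1 assembly of 5980 models in dm6 coordinates, 5128 of them with more than 1 exon. No value per sample exists for an intron, and each model rests on at least 2 full-length reads, with the number above that unknown here.

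Whole heads hold many cell types, and the assembly carried models of all 7 photoreceptor genes looked for (the rhodopsins and arrestins), of 2 of 3 glial, 3 of 3 fat body and 2 of 3 muscle markers. Of 5 neuronal markers only nSyb had a model, while elav, Syt1, brp and Syx1A had none, as did repo and Mhc. All 4 testis and accessory gland markers looked for also had models, although the labels name heads. A long intron of a gene with no model cannot be seen here, and fewer cells of a type cannot be told apart from less RNA per cell.

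In flies most introns are short and are recognised across the intron, while long introns are recognised across the exons beside them and often carry enhancers, alternative promoters and nested genes. Some are removed stepwise at internal sites where an acceptor lies directly against a donor, so that no exon is left, which is called recursive splicing. The polymerase needs longer to cross such introns, and long introns are known from genes of the nervous system, of development and of muscle.

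The lengths of the 1160 long introns ran from 2001 to 211034 nt, with quartiles of 2819, 4324 and 8278 nt. The shorter 11821 introns had a median of 68 nt. By number the long introns were a minority, yet they held 76.8% of the summed length of the unique introns, and 77.3% with nucleotides shared by overlapping introns counted once. There were 490 of at least 5000 nt, 227 of at least 10000, 76 of at least 20000 and 11 of at least 50000. Just below the minimum lay introns of 1996 nt in CG8888 and Argk1 and of 1997 nt in CG6765. Just above it lay those of 2001 nt in CG16758, 2002 nt in Cpr51A and 2003 nt in Mbs.

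The ends of the longest introns are shown because the splice sites are the only part of an intron that the reads define. Each line gives the last 6 exonic bases and the first 12 of the intron, and then the last 24 intronic bases and the first 4 of the next exon, 5′ to 3′. Capitals mark the donor hexamer and the last pair of intronic bases. All were read from the dm6 reference genome.
lovit intron 2, chr3L:25481047-25670673, minus strand, donor: attcagGTTAGTttacaa
lovit intron 2, acceptor: tttttatttctttcacacttttAGaaca
Mnr intron 1, chrX:21211800-21281045, minus strand, donor: ataaacGTACGTaagccg
Mnr intron 1, acceptor: atttttccatcttgtactttgcAGcaac
rdx intron 2, chr3R:13971103-14026877, minus strand, donor: aacaagGTGAGTttattt
rdx intron 2, acceptor: acactttttgcgaattccttgcAGattg
CenG1A intron 1, chr2L:13836433-13891299, plus strand, donor: ttgaagGTAAGTccccct
CenG1A intron 1, acceptor: tgataatttgatgttttcttacAGattc
Snap25 intron 2, chr3L:24079559-24131195, plus strand, donor: gatgagGTAAGTacgaca
Snap25 intron 2, acceptor: taacaaacttatttttcatttcAGtccc
l(3)80Fg, 49911 nt intron, chr3L:25874385-25924295, minus strand, donor: ttcaagGTAAGTtttaaa
l(3)80Fg, 49911 nt intron, acceptor: aaaggaatatgtcttgcgtttcAGgaaa

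The longest value, 211034 nt on the X chromosome, belonged to a model of RpL7A, a protein of the large ribosomal subunit, and differed from the rest. Its upstream exon of 20 nt lay on RpL17, the gene of another ribosomal protein, and 30 annotated genes lay between it and the exon of RpL7A. The annotation holds a 68 nt intron that ends at the same acceptor. The last 20 exonic bases before that short intron were identical to the 20 nt exon of the model at all 20 positions. Both sequences are printed because this identity sets the model apart.
Exon of the model, chrX:6744196-6744215, minus strand, on RpL17: tttttcgttccacgtttccg
End of the annotated RpL7A exon before the 68 nt intron: tttttcgttccacgtttccg
The longest intron after it was the 189627 nt intron of lovit, which matched the annotation.

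Several genes held many long introns. Lovit, a histamine transporter of photoreceptor synaptic vesicles, had 7 introns in a model of 1966 nt of mRNA that spanned 434040 nt. Their lengths in order from the 5′ end were 67, 189627, 59000, 54, 116882, 67 and 66377 nt, so 4 very long introns stood beside 3 of under 100 nt. Snap25, a SNARE protein of synaptic vesicle fusion, had introns of 5154, 51637, 36525, 42209, 43654, 4570 and 39044 nt in 1 model, and all 9 unique introns of the gene were long. In l(3)80Fg 9 of 11 introns were long. The long ones of its displayed model ran from 7493 to 49911 nt and the other 2 measured 49 and 56 nt. Gprk1, a kinase of G protein-coupled receptors, had 8 long introns of 15, among them introns of 30025, 28825 and 27150 nt, beside 6 introns of 51 to 60 nt in the same model. Rbp6, an RNA-binding protein, had 8 of 12, with 44722 nt the longest. CLIP-190, which binds growing microtubule ends, also had 8, of 21 unique introns in 13 models, the longest of 14500 nt.

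Lengths within a gene thus spanned several orders of magnitude in neighbouring introns. Fas2, a cell adhesion molecule of axons, had introns of 2413, 48434, 153, 4835, 5636, 83, 95 and 2453 nt. The plot of intron lengths in order shows the same mixture in cpx, the complexin gene that restrains vesicle fusion, and in wupA, the troponin I gene. In both the long introns were shorter, with 10713 nt the longest of the gene in cpx and 5630 nt in wupA.

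**Figure D1:**
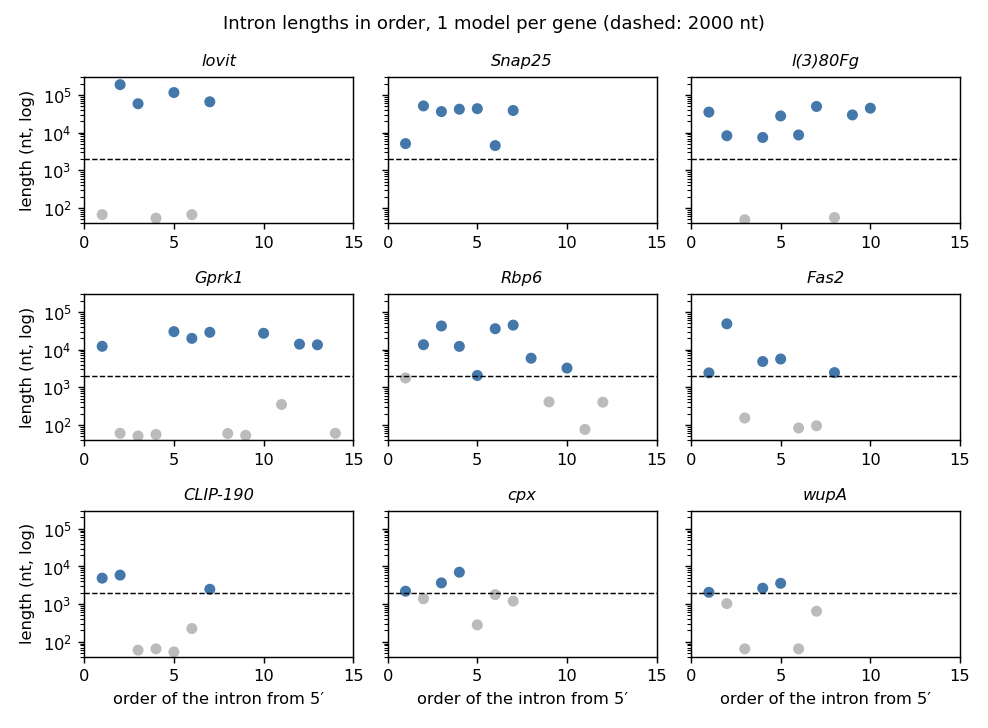
Intron length in nt (log axis) against the order of the intron from the 5′ end in 1 model of each of 9 genes; blue points are introns of 2000 nt or more and the dashed line marks 2000 nt. In lovit 4 introns measure 59000 to 189627 nt and the other 3 measure 54 to 67 nt, and in Snap25 all 7 introns lie above the line.

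The long introns lay in 722 genes, 715 of them protein-coding by annotation, 1 non-coding and 6 without an assigned gene. The last 6 were models each counted as a gene of its own. Some of them had their flanking exons on Argk1 or l(3)80Fg, which were already counted. Of the 722, 486 had a single long intron, 138 had 2, 51 had 3 and 47 had at least 4, up to 9. Introns of a gene are not independent of each other, and the tests describe 1 assembly rather than replicate samples. A long intron was present in 1104 of the 5128 multi-exon models. The median mRNA of these models was 2126 nt (quartiles 1661 and 2757), against 1417 nt (966 and 1940) in the 4024 models without. The genomic spans differed far more, with medians of 8570 nt (6187 to 14368) and 1838 nt (1226 to 2708). Models with a long intron had a median of 5 introns and the others of 2. Most long introns, 926, were seen in 1 model only, and the most widely shared was held by 12 models.

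Long introns were placed early in the transcript. Of the 1160, 519 (44.7%, 41.9 to 47.6) were the first intron of every model that held them. A further 444 (38.3%) were internal, 95 (8.19%) last, 69 (5.95%) the sole intron and 33 (2.84%) differed between models. Among shorter introns 22.7% were first, 41.4% internal and 24.1% last. In models with at least 2 introns, 519 of 1091 long introns were first (47.6%), against 2682 of 10706 shorter introns (25.1%). The odds ratio was 2.71 (2.39 to 3.09, Fisher's exact test, two-sided, p = 6.67e-52). Since models with more introns have fewer first introns in proportion, the ratio was also taken within classes of intron number and was then 3.96 (3.45 to 4.55, Mantel-Haenszel). With only the longest intron of each gene taken, the ratio was 1.31 (1.09 to 1.56, Fisher's exact test, p = 0.00296). There 378 of the long introns were first and 281 were not, against 1142 and 1109 of the longest introns of the other genes. Over all introns the excess was present in each class of intron number. In models of 3 introns 71.6% of long and 31.5% of shorter introns were first, and in models of at least 10 introns the shares were 20.8% and 7.75%.

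Turned round, 16.2% (15 to 17.5) of first introns were long, against 8.32% of internal, 5.83% of sole and 3.22% (2.65 to 3.93) of last introns. By rank from the 5′ end the long share was 16% for rank 1, 7.52% for rank 2, 5.47% for rank 3 and 4.63% for rank 4. It was then 6.34% for rank 5 and 7.55% for later ranks, whose intervals overlap those of ranks 2 and 3. Within the long class the median lengths were 4110 nt for first, 4623 nt for internal, 4337 nt for last and 3627 nt for sole introns. The 3 longest in last position were those of lovit with 66377 nt, l(3)80Fg with 44982 nt and lola, a transcription factor of axon growth, with 39453 nt. The 3 longest sole introns lay in CG31176 (44598 nt), CG17230 (25927 nt) and CG32816 (15636 nt). The plot of lengths by position shows these tails.

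**Figure D2:**
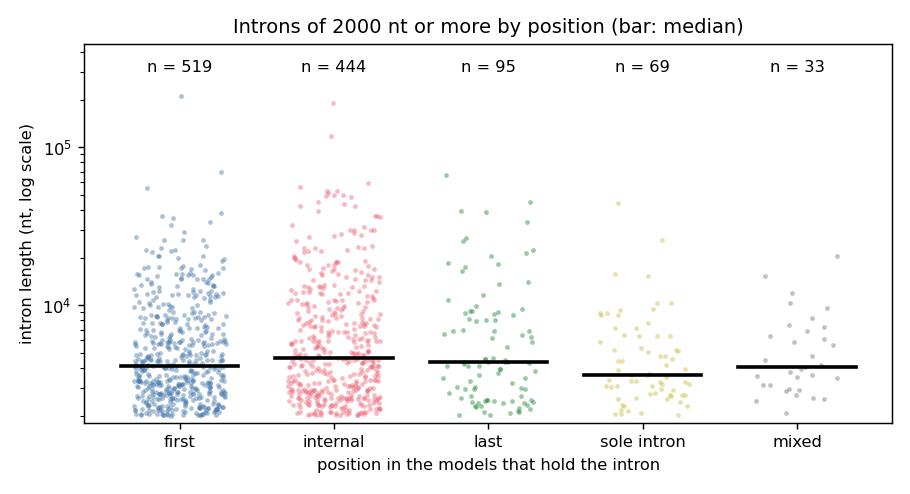
Length in nt (log axis) of each of the 1160 long introns by its position in the models that hold it; points are introns and bars medians. The medians lie between 3627 and 4623 nt, and the 519 first introns are the most numerous class.

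The first-position share rose with length and then fell again, as drawn in the plot of position by length class. Among introns under 100 nt 18.5% were first, and among those of 1000 to under 2000 nt 50.1% were. The share was 50% at 2000 to under 5000 nt, 47.1% at 5000 to under 10000 nt, 46.9% at 10000 to under 20000 nt and 29.7% (20.5 to 40.9) in the 74 introns of at least 20000 nt. The minimum of 2000 nt was therefore no step in this measure. The very long introns held fewer first introns than the class of 2000 to under 5000 nt, with intervals that do not overlap.

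Position relative to the coding sequence was read from the annotation for the 1123 long introns that matched an annotated intron of a coding transcript. In every annotated coding transcript that holds them, 393 (35%, 32.3 to 37.8) lay in the 5′ UTR. A further 694 (61.8%) interrupted the coding sequence, 9 (0.801%) lay in the 3′ UTR and 27 differed between transcripts. Of shorter introns 8.83% lay in the 5′ UTR. The odds ratio was 5.56 (4.83 to 6.39, Fisher's exact test, two-sided, p = 3.87e-113). This was not only the first position counted again. Among first introns alone the odds ratio was 4.03, and among introns of other positions it was 8.16. Conversely, 178 of the 694 long introns within coding sequence were first introns.

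**Figure D3:**
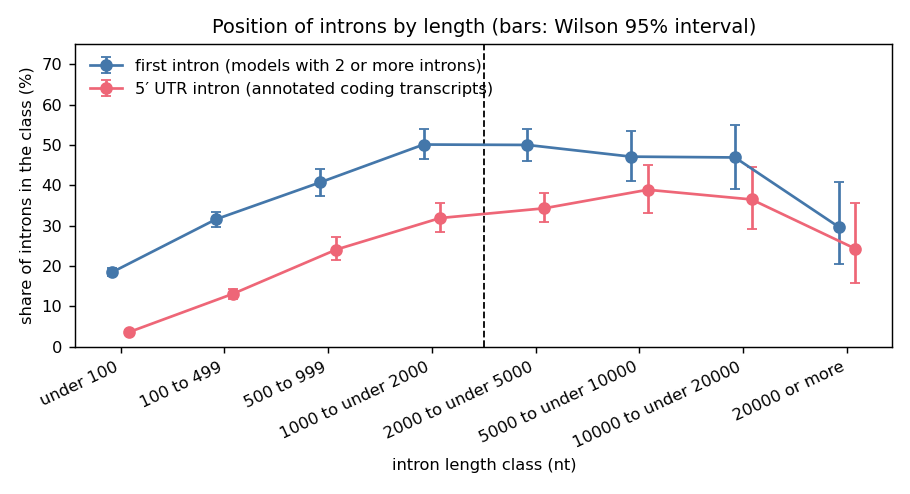
Share of introns (%) that are the first intron (blue, in models with at least 2 introns) or lie in the 5′ UTR (red, annotated coding transcripts) in 8 length classes in nt; bars are Wilson 95% intervals and the dashed line marks 2000 nt. The first-intron share climbs from 18.5% to 50.1% below the line and is 29.7% in the longest class.

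The ends of long introns were of the common type as often as those of shorter ones. GT-AG ends were present in 1151 of 1160 (99.2%) and in 99.1% of shorter introns, with an odds ratio of 1.12 (0.568 to 2.53, adjusted p = 0.868, Fisher's exact tests adjusted over 3). The sequence around these ends differed more. The donor began with GTAAGT or GTGAGT, which pair well with U1 snRNA, in 633 long introns (54.6%, 51.7 to 57.4) and in 43.5% of shorter introns (odds ratio 1.56, interval 1.38 to 1.76, adjusted p = 1.11e-12 by the same exact test). An acceptor with at least 12 pyrimidines among the 16 bases from 20 to 5 bases before the intron end was found in 674 long introns (58.1%, 55.2 to 60.9) and 35.6% of shorter ones. That odds ratio was 2.51 (2.21 to 2.84, adjusted p = 3.65e-49, again an exact test). The pyrimidine-rich share was 29.9% under 100 nt, 49.9% at 1000 to under 2000 nt, 65.6% at 10000 to under 20000 nt and 59.2% from 20000 nt. The median GC content was 40% in long and 35.8% in shorter introns.

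The 9 long introns without GT-AG ends are the place where a closer look at single junctions is possible, and those of 4 genes are printed. Capitals again mark the donor hexamer and the last pair of intronic bases.
Gdh intron 1, GC-AG, chr3R:23938556-23942593, minus strand, donor: agggagGCAAGTgttgat
Gdh intron 1, acceptor: ttatgcaattcttttcccttgcAGgcat
Prps intron 3, GT-TG, chr3L:9686476-9689264, minus strand, acceptor: tcctttgcatctctttctacgcTGgcca
Prps intron 3, GT-AG in another model, chr3L:9686464-9689264, acceptor: ctttctacgctggccaatgcacAGagtc
Acox3 intron 8, AC-AC, chr2L:6426912-6445118, minus strand, donor: ttgtagACTCACtgtaaa
Acox3 intron 8, acceptor: atatattcgtgttcatgtgtgaACactc
Rnf11 intron 3, AT-CA, chr4:320040-328162, plus strand, donor: gtgtatATATTGtagtgt
Rnf11 intron 3, acceptor: agctattacttattacttattaCAatat
The 6 GC-AG introns lay in CG5326, wupA, Gdh (glutamate dehydrogenase), CG9628, CG43394 and CG5973, and measured 2625 to 5833 nt. Prps, which makes phosphoribosyl pyrophosphate, used acceptors 12 nt apart in different models. The introns of Acox3, a peroxisomal acyl-CoA oxidase, and of Rnf11 could be moved by 6 and 4 bases without any change of the spliced sequence, because the same bases stand at both ends.

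Those introns of Acox3 and Rnf11 were also nearly pure transposable element. In the Acox3 intron 18201 of 18207 bases were annotated as the retrotransposon roo, and in the Rnf11 intron 8119 of 8123 as Stalker2. Across all long introns 7.13% of bases were annotated as transposable element, against 0.803% in shorter introns, and 174 long introns held some. In 18 long introns the share was at least 80% and in 7 at least 99%. The genes named here for it beyond Acox3 and Rnf11 were picked after their values were seen. In the last intron of Pc, the Polycomb gene, roo made up 9101 of 9107 bases. In the last intron of RhoGAP18B the element 412 took 6862 of 6867 bases, and in the first intron of speck it took all 7508. In the last intron of CG7900 the element G2 took 3031 of 3032 bases.

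These introns were unevenly placed. Of the 9 long introns in a 3′ UTR, 5 were at least 80% transposable element (Acox3, Pc, Rnf11, RhoGAP18B and CG7900), against 3 of 393 in the 5′ UTR and 10 of 694 within coding sequence. All 5 matched annotated introns. The coordinates come from the reference genome, which is of another fly stock than w1118, and whether the w1118 flies carry these insertions was not tested.

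An exact match to an annotated intron was found for 1123 of 1160 long introns (96.8%, 95.6 to 97.7) and for 99.7% of shorter introns. The odds ratio of a match was 0.0928 (0.0567 to 0.152, Fisher's exact test, two-sided, p = 3.34e-20). Each of the 37 unmatched long introns joined a donor and an acceptor that are both annotated, only not with each other, and 17 of them were first introns. Splice junctions had been corrected with short reads when the models were made. The match shares and the annotated splice sites are therefore no independent test of the reads. After RpL7A the longest were those of Dbp80, an RNA helicase (52454 nt), Gprk1 (49990 nt), CG7720 (25897 nt) and CG40498 (23556 nt). In all 4 both flanking exons lay on the gene itself. In CG15279, picked after its value was seen, the upstream exon lay on CG4480.

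The comparison made for RpL7A was repeated for all 37, with up to 20 exonic bases at either end set against those that an annotated intron with the same opposite end uses. In 5 of the 37 all 20 bases were identical. Besides RpL7A these were introns from CG4098 to CR18217 (7743 nt), from CG18853 to CG12822 (3200 and 3169 nt) and from CG7458 to CR34262 (2521 nt). The annotated introns there measured 56, 90, 59 and 59 nt. In the other 32 the best match was at most 11 of 20 bases. These genes were picked after the values were seen. Which copy the reads of such models came from was not tested.

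Long introns were distributed over all arms. They made up 8.6% of introns on 2L, 7.88% on 2R, 10.8% (9.65 to 12.1) on 3L, 7.87% on 3R, 12.6% on chromosome 4 and 10.6% on X. Against the other arms the odds ratio of 3L was 1.31 (1.13 to 1.51, adjusted p = 0.00215, Fisher's exact tests adjusted over 6). By the same exact tests it was 1.24 for X (adjusted p = 0.0345), 0.839 for 2R (0.0345) and 0.831 for 3R (0.0302). For chromosome 4 the ratio was 1.47 (0.904 to 2.3, exact test, adjusted p = 0.107) and for 2L 0.949 (0.808 to 1.11, adjusted p = 0.531). With 1 intron counted per gene none of the 4 calls remained, and the ratio of 3L was then 1.12.

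Position along the arm was described too. In the 5 Mb nearest the centromere of the 5 large arms, a window chosen after the data were seen, 169 of 924 introns were long (18.3%, 15.9 to 20.9). Over the rest of those arms 968 of 11874 were (8.15%, 7.67 to 8.66). The arms differed in this. On 3L 50.5% of the 103 introns in that window were long, against 9.09% elsewhere on the arm, and on 2R 37.5% of 72, against 7.14%. Snap25 and l(3)80Fg gave 9 each of the long introns in the 3L window. On X 16.8% of 161 were (9.82% elsewhere), on 3R 12.3% of 171 (7.65%) and on 2L 10.1% of 417 (8.3%). The median long intron there was 6293 nt, against 4100 nt elsewhere, and 40 of the 76 introns of at least 20000 nt lay there, in genes such as lovit, Snap25 and l(3)80Fg. Of the long introns near the centromere in models with at least 2 introns 31.4% (24.6 to 39.1) were first introns, and of those elsewhere on the large arms 51% (47.8 to 54.3). Transposable elements made up 9.67% of their bases, against 5.65% over the rest of the large arms. The highest share was on the small chromosome 4, where it was 43.7% over 23 long introns with a median of 3222 nt and none of 20000 nt or more.

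The genes with long introns were read against 16 lists of known function and against the genes the study followed singly. The share with a long intron ran from 0% to 76.9% over the lists. Over all 4038 named genes with a multi-exon model, 716 had a long intron, or 17.7%. The lists are described by their counts beside that share, without a test. A gene counts only where it had a multi-exon model, as 13 of the 61 annotated genes of cell adhesion and axon guidance did. Of these 13 genes 10 had a long intron (76.9%, 49.7 to 91.8). The longest were those of Fas2 (48434 nt), beat-IIa (19631 nt) and beat-Ia (18759 nt), immunoglobulin proteins of axons, and of Lac (10285 nt), which shapes septate junctions. Of ion channels 11 of 16 had one (68.8%), led by the calcium-activated potassium channel SK (23043 nt), the sodium channel NaCP60E (6237 nt), Ih (4319 nt) and pain (3603 nt). In the glial list 8 of 12 did (66.7%), with Indy, a citrate transporter, at 14051 nt, zyd at 6758 nt, nrv2 at 4495 nt and the glutamate transporter Eaat1 at 4179 nt.

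Cytoskeletal genes followed with 19 of 34 (55.9%). Their longest introns lay in tmod, which caps actin filaments (38301 nt), the microtubule protein Jupiter (25937 nt), Moe, which links actin to the membrane (17438 nt), and Lasp (16646 nt). In G protein and kinase signalling 15 of 28 did (53.6%), led by Gprk1, the MAP kinase rl (25405 nt), Ggamma30A (18448 nt) and Pka-C3 (17979 nt). Of genes of the synapse and of vesicle release 7 of 14 did (50%), with Snap25 followed by cpx, stnB (8635 nt) and dlg1 (7306 nt), a scaffold protein. The intron of stnB was 83.1% transposable element. The dpr and DIP adhesion proteins had 2 of 4 (50%, 15 to 85), in dpr3 (27252 nt) and DIP-epsilon (13301 nt). That interval includes the 17.7% over all genes.

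The intermediate lists had shares of 28.6% to 39.1%. In muscle 9 of 23 genes had a long intron, with 19894 nt in the Z-disc protein Zasp52, 14104 nt in Argk1, 9758 nt in the tropomyosin gene Tm1 and 6852 nt in Zasp66. Of RNA-binding proteins 6 of 16 did, with Rbp6, Syp (18862 nt), mub (18653 nt) and eIF4B (9298 nt) in front. Of fat body and lipid genes 8 of 22 did, with LpR2, a lipophorin receptor (16498 nt), Lpin (12980 nt), Acsl (8335 nt) and the lipase gene bmm (6896 nt). In phototransduction 7 of 24 did (29.2%, 14.9 to 49.2). After Gprk1 and Ggamma30A, which the signalling list also holds, came the opsin gene Rh4 (8642 nt) and the calmodulin gene Cam (4554 nt). Only 7 of 81 listed transcription factors had a multi-exon model, and 2 of these had a long intron, lola and cnc (3320 nt). The interval of that share, 8.22 to 64.1, includes the 17.7% over all genes, as does that of phototransduction.

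The lowest shares were in 3 housekeeping lists and in the odorant-binding and cuticle list. None of 27 proteasome genes had a long intron (0%, up to 12.5), and 1 of 73 ribosomal protein genes did (1.37%, 0.242 to 7.36), which was the RpL7A model described above. Of 53 genes of oxidative phosphorylation 2 did (3.77%, 1.04 to 12.8), COX6B with 3096 nt and COX6AL2 with 2340 nt. Of 36 odorant-binding and cuticle genes 3 did (8.33%, 2.87 to 21.8), all of them cuticle genes, Cpr62Ba (3608 nt), Cpr76Bc (2645 nt) and Cpr51A (2002 nt). These 4 lists had few introns per gene, a median of 2 in ribosomal, oxidative phosphorylation and proteasome genes and of 1 in the odorant-binding and cuticle list, against 3 over all genes and 6.5 in the ion channel and synapse lists. Adhesion and guidance genes also had a median of 3, transcription factors of 2 and glial genes of 7. The part of intron number in the differences between lists was not tested. Of 6 genes followed singly in the study that had a multi-exon model, 4 had a long intron, stai (8660 nt), wun (4754 nt), chic (2936 nt) and Fatp1 (2921 nt).

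**Figure D4:**
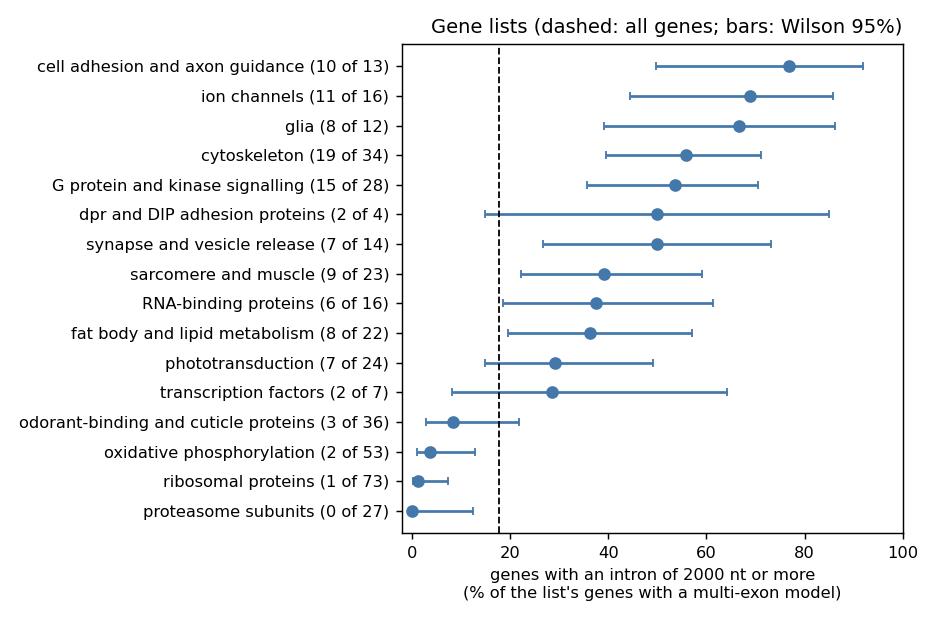
Share of genes (%) with an intron of 2000 nt or more among the genes of each list that have a multi-exon model, with counts in the labels; bars are Wilson 95% intervals and the dashed line is the 17.7% over all such genes. Adhesion and guidance genes reach 76.9%, while ribosomal protein and proteasome genes lie at 1.37% and 0%.

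A part of the long introns contained the start of another isoform. A start was counted when a 5′ end of another model of the gene lay inside the intron and more than 50 nt from either end, with 5′ ends joined over gaps of up to 50 nt. Of the 1160 long introns 127 held such a start, in 110 genes, and 17 held at least 2. Overlapping introns of a gene can hold the same start, so the 145 pairs of an intron and a start came from 129 distinct starts. Each of the 127 also held an annotated start. Models without promoter-database support for their 5′ end had been removed before, so this is no independent support for the starts. Annotated starts lay in 330 long introns (28.4%, 25.9 to 31.1). An alternative start needs another model, and 648 long introns belonged to genes with a single multi-exon model. Among the 512 in genes with at least 2, 24.8% (21.3 to 28.7) held a start. In such genes 3.1% (2.55 to 3.76) of all shorter introns did, and 19.2% (15.3 to 23.7) of those of 1000 to under 2000 nt.

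Argk1, the arginine kinase that buffers ATP in muscle and neurons, had the most. Its 14104 nt intron on 3L held 3 starts, at 1515, 6882 and 10902 nt from the donor. Other models of the gene joined exons that lie inside this intron to the same acceptor, across introns of 11547 and 7183 nt. The donors of these 3 introns are printed because a single acceptor served all of them. Models without an assigned gene used that acceptor too, across introns of 15348 and 3160 nt. Capitals mark the donor hexamer and, in the acceptor, the last pair of intronic bases.
Argk1, donor of the 14104 nt intron, chr3L:9050360-9064463, minus strand: aatacgGTAAGTgcaaaa
Argk1, donor of the 11547 nt intron, chr3L:9050360-9061906: cgagcgGTAAGCtttaaa
Argk1, donor of the 7183 nt intron, chr3L:9050360-9057542: gcaaagGTGAGCcgtcct
Argk1, shared acceptor: ccttctctctacgtatttttgcAGcaaa

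The genes that followed each had 2 starts in a long intron. The starts lay at 10101 and 17104 nt of the 18862 nt intron in Syp, and at 3498 and 11392 nt of the 16012 nt intron in Pka-R1, the regulatory subunit of protein kinase A. In Rtnl1, a reticulon of the endoplasmic reticulum, they lay at 3252 and 7810 nt of 13186 nt. In cu they lay at 2561 and 7555 nt of 9057 nt. AMPdeam, Snp, CG3625, CG7220 and Ald1, the aldolase gene, had introns of 3294 to 7594 nt with 2 starts each. The farthest start lay in tmod, 37650 nt into an intron of 38301 nt, and that of rdx only 915 nt into 55775 nt. Over all 127 introns the nearest start lay at a median of 2630 nt from the donor (quartiles 1247 and 4862). The starts were spread along the introns, at a median of 50.6% of the length (31.6 to 77.9), as the plot of start distances shows.

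Starts were concentrated in first introns. Of 519 long first introns 90 (17.3%) held a start, against 32 of 572 long introns in other positions of multi-intron models (5.59%). The odds ratio was 3.54 (2.29 to 5.58, Fisher's exact test, two-sided, p = 6.39e-10), and 4.62 in genes with at least 2 multi-exon models. Overlapping introns that hold the same start were each counted, and this test was not repeated with 1 intron per gene. Per length, first introns held 2.79 starts per 100 kb and other long introns 0.794. These rates count the length of all long introns, also in genes with a single multi-exon model. Longer introns gave more room but not more starts per length. In genes with at least 2 models the share with a start was 20.8% at 2000 to under 5000 nt, 27.3% at 5000 to under 10000 nt and 47.2% (34.4 to 60.3) at 10000 to under 20000 nt. In the 31 introns of at least 20000 nt it was 16.1% (7.09 to 32.6). The density was highest at 1000 to under 2000 nt, with 14.3 starts per 100 kb, and fell to 7.25, 4.51, 4.27 and 0.471 over the 4 classes of long introns. These densities count only introns of genes with at least 2 models, so they are not on the scale of the rates above.

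**Figure D5:**
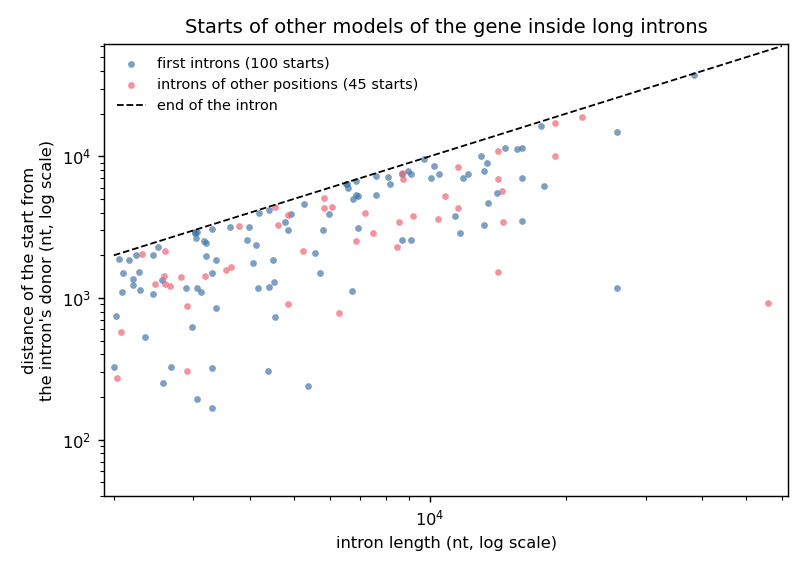
Distance in nt from the intron's donor to each start of another model of the gene inside a long intron, against the intron length in nt (both axes log); blue points are starts in first introns, red points in other introns, and the dashed line is the end of the intron. The 145 points, from 129 distinct starts, fill the space up to the line, with the farthest at 37650 nt in tmod.

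Other differences between the models of a gene also met at long introns. Among long introns of genes with at least 2 multi-exon models, 52.9% (48.6 to 57.2) shared their acceptor with another donor, against 18.3% of shorter introns. For the donor the shares were 25% and 15.3%. An exon of another model lay inside 21.7% of long and 3.57% of shorter introns, and a 3′ end inside 5.08% and 0.98%. A longer intron has more room for an exon or an end, so these shares are given without a test. At the gene level, 129 of 256 genes with a long intron used at least 2 starts (50.4%), against 76 of 416 without (18.3%). The odds ratio was 4.53 (3.16 to 6.54, adjusted p = 6.98e-18, Fisher's exact tests adjusted over 2). At least 2 3′ ends were used by 100 of 256 (39.1%) and 93 of 416 (22.4%), an odds ratio of 2.22 (1.56 to 3.18, exact test, adjusted p = 4.61e-06). With the number of models held at exactly 2 the ratios were 4.25 and 1.73 (adjusted p = 0.0193 for the latter). A start inside a long intron is itself a further start of its gene, and 110 genes had one. The room for a start or an end was not held equal between these groups of genes, also not at exactly 2 models.

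Whole genes were nested in 190 long introns (16.4%, 14.4 to 18.6). A longer intron has more room for a gene, and the share among shorter introns is not given here. The 336 annotated genes inside comprised 208 coding genes, 83 non-coding RNAs, 27 snoRNAs, 10 tRNAs, 7 pseudogenes and 1 snRNA, and 67 of the 336 had a model of their own. Of the coding genes 141 lay on the opposite strand and 67 on the same strand as the host. These totals include 30 genes inside the RpL7A model set apart above, 23 of them coding and 9 of these on the same strand. They also include the mod(mdg4) entries given next. After RpL7A, the 22423 nt intron of mod(mdg4), a chromatin gene known for trans-splicing, held the most, with 23 annotated genes that all carry names of its alternative 3′ segments. The 2651 nt intron of Arpc2, an actin nucleation subunit, held 11 snoRNAs on its own strand, a usual place for snoRNA genes. The 8022 nt intron of Usp12-46 held 8 annotated entries, among them the microRNA mir-4953 and an entry under a transcript name. Such entries also stood beside microRNAs in other introns, as in MFS17 and tau. Whether they are separate genes was not tested. In the 8642 nt intron of Rh4 lay sina and sinah, on the opposite strand, and CG13029, of which CG13029 had a model. The 54867 nt intron of CenG1A held 7 genes, 4 of them with a model.

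Candidate sites of stepwise splicing were searched as AGGTAAGT and AGGTGAGT, an acceptor end joined to a strong donor, on the transcribed strand and, for comparison, on the opposite strand of the same introns. The letters alone were not more frequent there, with matches in 103 introns (8.88%, 7.38 to 10.7) on the transcribed and 150 (12.9%, 11.1 to 15) on the opposite strand. At least 12 pyrimidines were then required among 16 bases before the site, with the 2 bases next to it left out. With this, 16 matches in 15 introns remained on the transcribed strand (1.29%) and 8 in 8 introns (0.69%, 0.35 to 1.35) on the opposite strand. In introns of at least 20000 nt these matches were found in 10 and 2 of 76. The 10 include the RpL7A intron and a pair of overlapping rdx introns that hold the same site. With each site counted once and RpL7A left out, there were 13 sites on the transcribed and 7 on the opposite strand, of which 9 and 2 lay in introns of at least 20000 nt. The intervals over all introns overlap (0.785 to 2.12 on the transcribed strand). Sites in 7 of the longest annotated introns are shown with the motif in capitals and the pyrimidine-rich stretch before it, all read from the dm6 genome. Matches are letters only, and no stepwise use of them was measured. The counted site of CG31523, 429 nt into its 10462 nt intron, is also the donor of another modelled intron of the gene, of 10033 nt.
Mnr, 21505 nt into the intron chrX:21211800-21281045: ccttttctctgtcattgcAGGTGAGTgcag
Mnr, 42617 nt into the same intron: ctcttcttatctcgttgcAGGTGAGTttcg
rdx, 54891 nt into the intron chr3R:13971103-14026877: ccatcttgcacctttataAGGTGAGTgagt
Fas2, 12459 nt into the intron chrX:4154757-4203190: ttccacttttctccttccAGGTAAGTgtca
tmod, 32369 nt into the intron chr3R:30533508-30571808: ctctcgctttttaattgcAGGTGAGTtcga
MCU, 19057 nt into the intron chr3L:6562419-6590603: ttttactcttttatttacAGGTGAGTtgac
Jupiter, 2633 nt into the intron chr3R:11593767-11619703: ttttttttctctttttgcAGGTAAGTtcat
Pli, 6494 nt into the intron chr3R:23865656-23889056: cctctgctcttcttttgcAGGTAAGTttcg
MCU, the mitochondrial calcium uniporter, and Pli were named because they hold a match.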

How the data were processed

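FLAM-seq was run by the authors on 3 head samples of w1118 flies. According to their methods, the reads were mapped with STARlong to dm6, corrected with short-read splice junctions and collapsed with FLAIR, with promoter-database support for 5′ ends and at least 2 full-length reads per model. All samples were merged before assembly. The deposited table holds exon coordinates (1-based, nt) of pooled models and no count, so depth per intron is unknown and precision across flies cannot be given. One further column of whole numbers has no description and was not used.

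Introns were derived from consecutive exons. Ensembl release 115 annotation on the same dm6 coordinates gave genes, coding sequence and transposable elements, and splice sites were read from the reference genome. The gene of 1127 long introns came from the identifier and that of 27 from shared annotated introns, while 6 had none. Groups were compared by two-sided Fisher's exact tests (scipy 1.17.1, conditional odds ratio, exact 95% interval) with Benjamini-Hochberg adjustment within each family, checked on simulated data. Mantel-Haenszel ratios came from statsmodels 0.14.6. Alternatives were other minimum lengths and end windows, 1 intron per gene and annotated identifiers or introns only.

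The genes named are those of the longest introns (of any, in last and sole position, and without an annotated match), those without GT-AG ends, with the most long introns, starts or nested genes, those nearest the minimum, and the 4 longest of each list. The members, lists and tests were chosen with earlier results of these data known.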

Additional observations from a re-analysis of the deposited data

How the results depend on the processing

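Of 96 alternative values, 76 kept the direction and the side of the threshold, among them all those for position, coding position, annotated share, starts inside and starts or 3′ ends per gene. Several of these moved in size. With 1 intron per gene the odds ratio was 1.31 for first position, 3.79 for the 5′ UTR and 0.143 for an annotated match. For genes with at least 2 starts it was 7.79 at a minimum of 1000 nt and 9.29 over all genes with a multi-exon model, and for at least 2 3′ ends 5.58 over all such genes. The number of long introns was 1871 at a minimum of 1000 nt and 490 at 5000 nt. The calls by chromosome arm were the least stable. Counted with 1 intron per gene, the odds ratios were 0.962 for 2R, 1.12 for 3L, 0.872 for 3R and 1.04 for X, none past the threshold. With annotated gene identifiers only they were 0.859, 1.2, 0.85 and 1.27, and without the 5 Mb nearest the centromere 0.822, 1.15, 0.899 and 1.25, again none past it. At a minimum of 5000 nt X was at 1.17 and no longer past it, and at 1000 nt chromosome 4 was at 1.84 and past it. The ratio of 2L, never past the threshold, turned to 1.03 at 5000 nt and to 1.01 without the 5 Mb. That of GT-AG ends turned to 0.967 among first introns and to 0.935 without the 5 Mb. The analyses by position, without the 5 Mb and by number of models were chosen after seeing the data. The cause of these shifts was not tested. No paired analysis was possible because the samples were pooled before assembly. Without read numbers per model, the support of the 926 long introns seen in 1 model is unknown beyond the minimum of 2 reads.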
